A study of Homo sapiens with 6 samples.

Results

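The genes described here make, sense and break down cyclic AMP (cAMP). They are 36 of 20015 protein-coding genes and were chosen by name: the G protein subunit GNAS, 10 adenylyl cyclases (ADCY1 to ADCY10), 7 subunits of protein kinase A (PKA), the exchange factors RAPGEF3 and RAPGEF4, and 16 phosphodiesterases that accept cAMP, from the families PDE1 to PDE4, PDE7, PDE8, PDE10 and PDE11. A peak with any base within 3 kb of any annotated start site of a gene was counted as its promoter peak, and any other peak inside the gene as a gene-body peak. By this rule the 36 genes held 59 promoter peaks and 103 gene-body peaks, of 30784 peaks in all.

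The peaks came from chromatin immunoprecipitation followed by sequencing (ChIP-seq) for histone H3 acetylated at lysine 27 (H3K27ac), a mark of active promoters and enhancers. The series has 6 samples of SU-CCS-1, with 3 H3K27ac ChIP samples and 3 inputs, which are sonicated chromatin without immunoprecipitation. SU-CCS-1 is an established human clear cell sarcoma (CCS) line, all samples carry EWSR1::ATF1 (EA1), and no other line, genotype or treatment was included. The deposited list merges the H3K27ac data and holds positions only, so nothing below has an error between replicates, and the study asked where active chromatin lies in cells that express EA1.

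The cells were checked against lineage markers. A promoter peak was listed for 5 of 6 melanocyte lineage genes (SOX10, MITF, PMEL, MLANA and S100B, but not TYR). It was listed for 0 of 4 skeletal muscle genes (MYOD1, MYOG, ACTA1 and CKM). Over all protein-coding genes the share was 63.4%, so these few markers are a weak check. Peaks had a median width of 1060 bases and a smallest width of 400 bases. A start site without a peak was below the calling cutoff or was removed after calling, and the list cannot show that it lacked acetylation.

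As background, receptors that couple to the stimulatory G protein activate membrane adenylyl cyclases, which turn ATP into cAMP. cAMP binds the regulatory subunits of PKA and frees the catalytic subunits, which phosphorylate ATF1 and CREB, the factors that bind cAMP response elements (CREs), and phosphodiesterases end the signal by hydrolysing cAMP. In melanocytes this route runs from the melanocortin receptor to MITF. EA1 retains the DNA-binding domain of ATF1 but not its cAMP-responsive part, and the study cites a hypothesis that EA1 acts independently of cAMP. Many phosphodiesterase genes use several promoters, and in the PDE4 genes the promoter decides whether the enzyme carries the upstream regulatory regions through which PKA acts on it.

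Of the 36 genes, 29 (80.6%) had a promoter peak, against 63.4% of all protein-coding genes. Of the other 7, PDE1A came nearest to the limit of 3 kb, with a start 4.18 kb from a peak, followed by ADCY4 at 18.5 kb, ADCY10 at 20.9 kb, PRKACG at 21.5 kb, RAPGEF4 at 27.4 kb, ADCY8 at 69.4 kb and PDE1B at 170.0 kb. PDE11A lay just inside the limit, with its closest start 2.91 kb from a peak. The members are long genes, with a median length of 154 kb against 27.5 kb for all genes, and have more starts that can meet a peak. Below 50 kb the share was 62.5% of members against 58.8% of all genes, and from 50 to 150 kb 90% against 73.4%. From 150 to 300 kb it was 87.5% against 73.3%, and at 300 kb or more 80% against 65.5%. Each class held 8 or 10 members, and the part of length or of start number in the difference was not tested. When only the Ensembl canonical start of each gene was used, 21 of the 36 members had a peak within 3 kb. That share was no higher than the 59.9% of all genes. The remaining 8 members met a peak only at another start, as did 695 of all 20015 genes. These 8 members were ADCY7, PRKACB, PDE1C, PDE2A, PDE4A, PDE4B, PDE4D and PDE11A, and so included 6 of the 16 phosphodiesterases. Among members with a promoter peak the widest one measured 1780 bases at the median, against 1600 bases over all genes with one.

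**Figure D1:**
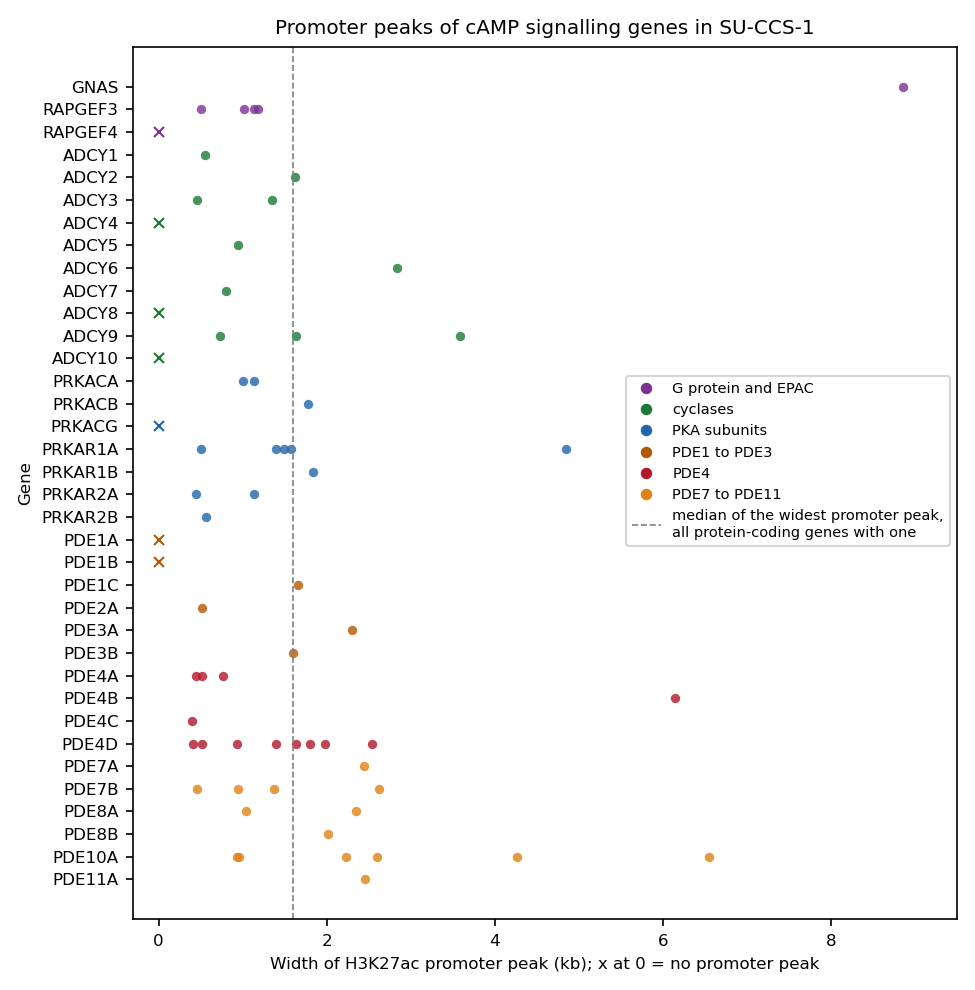
Width of every H3K27ac promoter peak (kb, horizontal axis) for each of the 36 cAMP signalling genes, coloured by role. Each point is 1 peak, a cross at 0 marks a gene with no promoter peak, and the dashed line is the median of the widest promoter peak over all protein-coding genes (1600 bases). GNAS, PDE10A, PDE4B and PRKAR1A held the widest peaks, of 8.86, 6.55, 6.14 and 4.85 kb.

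The PDE4 genes encode the cAMP-specific phosphodiesterases that rolipram inhibits, and each had a promoter peak, but mostly away from its canonical start. Start sites within 500 bases of each other were joined into 1 promoter, and promoters were numbered from the 5' end of each gene. Of 39 PDE4 promoters, 13 (33.3%) had a peak within 3 kb, against 33.5% of the promoters of all protein-coding genes, and 8 (20.5%) had a start inside the peak, against 22.4%. Over all 36 genes the counts were 76 of 255 promoters (29.8%) and 46 (18%). The share of PDE4 promoters with a peak was therefore near that of all genes, and the PDE4 genes differed among themselves in which promoter it was.

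PDE4D (chr5:58969038-60522120, minus strand, 1553 kb) had 15 promoters, and 5 of them had a peak. Starts lay inside a peak for promoter 8 (transcript PDE4D-216, 745 residues, peak chr5:59767541-59769180 of 1.64 kb), promoter 11 (PDE4D-207, 687 residues, 2.54 kb), promoter 12 (PDE4D-210, 679 residues, 1.98 kb) and promoter 14 (PDE4D-204, 507 residues, 1.80 kb). The start of promoter 5, which has no coding transcript, lay 119 bases from a peak of 1.40 kb. The canonical promoter 7 (PDE4D-203, 809 residues) was 75.1 kb from the nearest peak. No peak was listed either for promoter 2 (PDE4D-208, 748 residues, 200.3 kb away), promoter 9 (PDE4D-205, 673 residues, 157 kb), promoter 10 (PDE4D-227, 699 residues, 48.4 kb) or promoter 15 (PDE4D-202, 518 residues, 38.4 kb). Thus peaks stood at starts of both longer and shorter coding transcripts, and the transcript with the most residues had none.

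The 100 bases upstream of the PDE4D starts show how these promoters differ in sequence. They are given 5' to 3' on the gene strand from hg38, with each CG dinucleotide in capitals. The first 4 belong to promoters with a start inside a peak and the last 2 to coding promoters without one.
PDE4D promoter 8 (chr5:59768849-59768948, minus strand): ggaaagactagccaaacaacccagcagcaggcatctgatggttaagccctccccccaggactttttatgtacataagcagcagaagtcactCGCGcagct
PDE4D promoter 11 (chr5:59356976-59357075, minus strand): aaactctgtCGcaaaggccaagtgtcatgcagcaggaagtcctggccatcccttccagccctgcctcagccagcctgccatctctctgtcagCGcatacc
PDE4D promoter 12 (chr5:59276120-59276219, minus strand): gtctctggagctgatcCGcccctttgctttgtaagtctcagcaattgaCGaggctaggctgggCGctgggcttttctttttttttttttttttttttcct
PDE4D promoter 14 (chr5:59039516-59039615, minus strand): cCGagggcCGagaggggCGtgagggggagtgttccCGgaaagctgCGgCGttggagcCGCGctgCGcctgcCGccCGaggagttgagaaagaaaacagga
PDE4D promoter 7 (chr5:59893727-59893826, minus strand): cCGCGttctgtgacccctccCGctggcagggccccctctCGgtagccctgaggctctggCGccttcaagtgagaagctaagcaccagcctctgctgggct
PDE4D promoter 9 (chr5:59586500-59586599, minus strand): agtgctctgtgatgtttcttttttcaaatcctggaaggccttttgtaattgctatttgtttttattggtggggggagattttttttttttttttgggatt

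In windows from 250 bases before to 50 after the start, promoter 14 of PDE4D had 68.3% GC and 31 CG dinucleotides, and promoters 8, 11 and 12 had 43%, 49.3% and 44% GC with 7, 6 and 7 CG dinucleotides. Over all protein-coding genes, promoters with a start inside a peak had a median of 65% GC and 25 CG dinucleotides, and those with no peak had 46.7% and 4. Of the 4 PDE4D promoters inside peaks, 14 is the one that resembled that median in base composition, and 8, 11 and 12 were CG-poor. The reverse held at the canonical promoter 7, which was GC-rich (66.7%, 21 CG dinucleotides) and had no peak. Promoter 9 had neither (36.7%, 2 CG dinucleotides). Over the PDE4 genes together, promoters with a start inside a peak had a median of 58% GC and 16.5 CG dinucleotides. Those with no peak had 43.8% and 3, so the family as a whole went the way of all genes.

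PDE4B (chr1:65792514-66374579, plus strand, 582 kb) had 10 promoters, and 2 of them, which lie close together near the 3' end, met 1 peak of 6.14 kb (chr1:66331701-66337840). That peak was wider than the widest promoter peak of 97.8% of genes with one. The start of promoter 6 (PDE4B-203, 564 residues) lay inside it and that of promoter 5 lay 0.97 kb from it. The canonical promoter 1 (PDE4B-201, 736 residues) was 371 kb from the nearest peak, promoter 2 (PDE4B-206, 721 residues) 269 kb, and promoter 7 (PDE4B-207, 503 residues) 15.3 kb. Peaks were thus listed for a middle-length product of PDE4B and for neither the 2 longest nor the shortest of these. Promoter 6 had 41% GC and 6 CG dinucleotides in its window, and promoter 1, which had no peak, had 61.7% and 18. Their upstream sequences are shown in the same way.
PDE4B promoter 6 (chr1:66331904-66332003, plus strand): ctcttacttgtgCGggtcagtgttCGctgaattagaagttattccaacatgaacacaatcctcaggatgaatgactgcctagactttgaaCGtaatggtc
PDE4B promoter 1 (chr1:65792414-65792513, plus strand): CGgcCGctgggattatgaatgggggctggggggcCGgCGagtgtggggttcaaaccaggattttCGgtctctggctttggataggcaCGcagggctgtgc

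PDE4A (chr19:10416773-10469630, plus strand) had 3 narrow promoter peaks of 0.44, 0.52 and 0.77 kb. Starts of promoter 3 (PDE4A-201, 860 residues) and promoter 4 (PDE4A-204, 825 residues) lay inside the wider 2, and that of promoter 1 (PDE4A-209, 864 residues) lay 33 bases from the narrowest. The canonical promoter 2 (PDE4A-203, 886 residues) was 3.80 kb from a peak and so just outside the limit, and promoter 6 (PDE4A-202, 647 residues) was 20.3 kb away. PDE4C (chr19:18207965-18248200, minus strand) was the only PDE4 gene with a peak at its canonical start (PDE4C-201, 680 residues). That peak measured 0.40 kb, the smallest width in the list. Promoter 6 of PDE4C (PDE4C-202, 606 residues) lay 1.58 kb from it, and the promoters of the 712-residue and 481-residue products had no peak. PDE4A and PDE4C had no gene-body peak, whereas PDE4B had 15 and PDE4D 35.

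**Figure D2:**
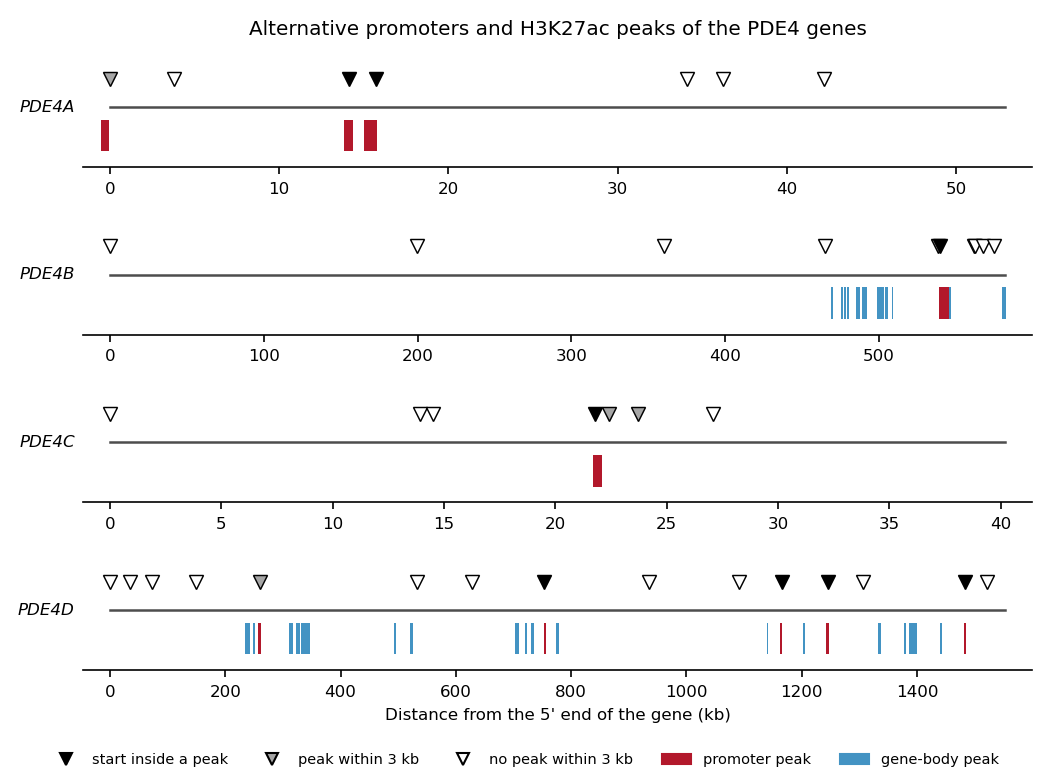
Promoters (triangles) and H3K27ac peaks (boxes) along the PDE4A, PDE4B, PDE4C and PDE4D genes, by distance from the 5' end of each gene (kb, each gene on its own scale). Black triangles are promoters with a start inside a peak, grey ones have a peak within 3 kb and white ones have none; 13 of 39 are black or grey, and in PDE4B and PDE4D most peaks (blue, 15 and 35) lie away from any promoter.

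All 6 genes of the families PDE7, PDE8, PDE10 and PDE11 had a promoter peak, against 63.4% of all genes. The widest peak of each measured from 2020 to 6550 bases. PDE9A, which is specific to cGMP and not a member, had no promoter peak. Of their 45 promoters, 19 (42.2%) had one, against 33.5% over all genes. No difference between families was tested. PDE10A (chr6:165327287-165988117, minus strand), which hydrolyses both cAMP and cGMP and is best known from the striatum, had 6 promoter peaks at 7 of its 15 promoters. A peak of 6.55 kb covered promoters 1 and 2 (PDE10A-225 and PDE10A-211, 820 and 847 residues), and a peak of 4.27 kb covered promoters 5 to 7, among them the canonical start (PDE10A-205, 1055 residues). Its 8 other promoters had no peak. PDE7B (chr6:135851701-136195574, plus strand), a cAMP-specific enzyme, had a 0.94 kb peak at its canonical start and a 2.62 kb peak at promoter 3, 297.4 kb downstream, but none at promoter 2 (PDE7B-203, 502 residues, 73.8 kb away). PDE7A, PDE8A and PDE8B, which are also cAMP-specific, had peaks of 2.45, 2.35 and 2.02 kb at their canonical starts. PDE11A was the exception, since its 2.46 kb peak lay near a start without a complete coding transcript and its canonical start was 24.2 kb from a peak.

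The calcium-, cGMP- and insulin-linked families PDE1 to PDE3 had a promoter peak in 4 of 6 genes (66.7%), near the share of all genes. PDE3A and PDE3B, which cGMP inhibits, had peaks of 2.30 and 1.60 kb at their canonical starts, and the PDE3B peak also lay within 3 kb of a start of PSMA1. PDE1C, a calmodulin-dependent enzyme, had 1 peak of 1.66 kb, 69 bases from promoter 2 (PDE1C-206, 769 residues), and its canonical start was 179 kb from a peak. PDE2A, which cGMP stimulates, had a peak of 0.52 kb over promoter 5 (PDE2A-226, 934 residues) and none at the canonical promoter (PDE2A-201, 941 residues, 31.5 kb). PDE1A and PDE1B had no promoter peak, although PDE1A held 3 gene-body peaks of 0.50 to 0.61 kb.

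On the side of synthesis, GNAS stood out by width. GNAS encodes the stimulatory G alpha subunit from downstream starts and other, imprinted products from upstream starts. A single peak of 8.86 kb (chr20:58888011-58896870) contained starts of promoters 6 to 10, with the canonical transcript of 394 residues among them, and was wider than the widest promoter peak of 99.2% of genes with one. None of promoters 1 to 5 had a peak. They lay 34.7 to 47.9 kb upstream of the 8.86 kb peak and 19.3 to 32.9 kb from the nearest peak in the list. These included starts of the 1038-residue and 1023-residue products (GNAS-261 and GNAS-215). Promoters 1 to 5, without a peak, had 50% to 68% GC. Inside the peak, promoters 6, 7 and 8 had more, with 75.7%, 70% and 83.7%. Promoters 9 and 10, which have no coding transcript, had less, with 42.3% and 35.7%, although they lay in the same peak.

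Adenylyl cyclases had a promoter peak in 7 of 10 genes (70%), near the 63.4% of all genes, and in 6 of 10 at the canonical start, against 59.9%. The widest belonged to ADCY9, the membrane cyclase that forskolin activates least, and to ADCY6, with 2.84 kb. ADCY9 had peaks of 1.63 kb at its canonical start and 3.59 kb at promoter 3 inside the gene. ADCY6 and ADCY5 are the related cyclases that calcium inhibits, and the ADCY5 peak of 0.95 kb began 41 bases upstream of its start. ADCY2 had a peak of 1.62 kb, ADCY3 of 1.35 kb and ADCY1 of 0.55 kb, each within 3 kb of the canonical start. ADCY7 had a 0.80 kb peak at promoter 1 and none at its canonical promoter 2 (1080 residues, 20.1 kb). ADCY4, ADCY8 and the bicarbonate-responsive soluble cyclase ADCY10 had none. The ADCY6 peak also lay within 3 kb of a start of the divergent transcript ADCY6-DT, which the list cannot separate from ADCY6.

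PKA subunits had a promoter peak in 6 of 7 genes (85.7%, against 63.4% of all genes), all except PRKACG, an intronless gene expressed in testis. PRKAR1A (chr17:68511780-68551319, plus strand), the regulatory subunit lost in Carney complex, had the most, with 5 promoter peaks of 0.51 to 4.85 kb and 3 gene-body peaks. Its canonical start did not lie in any of them. It fell in a gap between peaks that end at 68511720 and begin at 68513431, 710 bases from the former. PRKACA, the main catalytic subunit, had peaks of 1000 and 1130 bases on either side of its canonical start, the latter 32 bases away. PRKACB had a 1.78 kb peak at the start of a 351-residue product (PRKACB-205), and its canonical start (PRKACB-203, 398 residues) was 65.1 kb from it. PRKAR1B, PRKAR2A and PRKAR2B had peaks of up to 1.84, 1.14 and 0.56 kb over their canonical starts. The PRKAR1B peak was shared with a start of DNAAF5 and the PRKAR2A peak with one of PRKAR2A-AS1. Promoter peaks of ADCY3, GNAS, PRKACA, PRKACB, PDE2A, PDE3A, PDE4D, PDE7A and PDE10A also included some within 3 kb of another gene's start.

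The cAMP-regulated exchange factors that act on RAP GTPases were unlike each other. RAPGEF3 had 4 promoter peaks of 0.50 to 1.18 kb, with its canonical start inside the one of 1.14 kb. SLC48A1 had a start within 3 kb of 3 of these peaks, so that they cannot be assigned to RAPGEF3 alone. RAPGEF4, which is 318 kb long and has 11 promoters, had neither a promoter peak nor a gene-body peak.

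**Figure D3:**
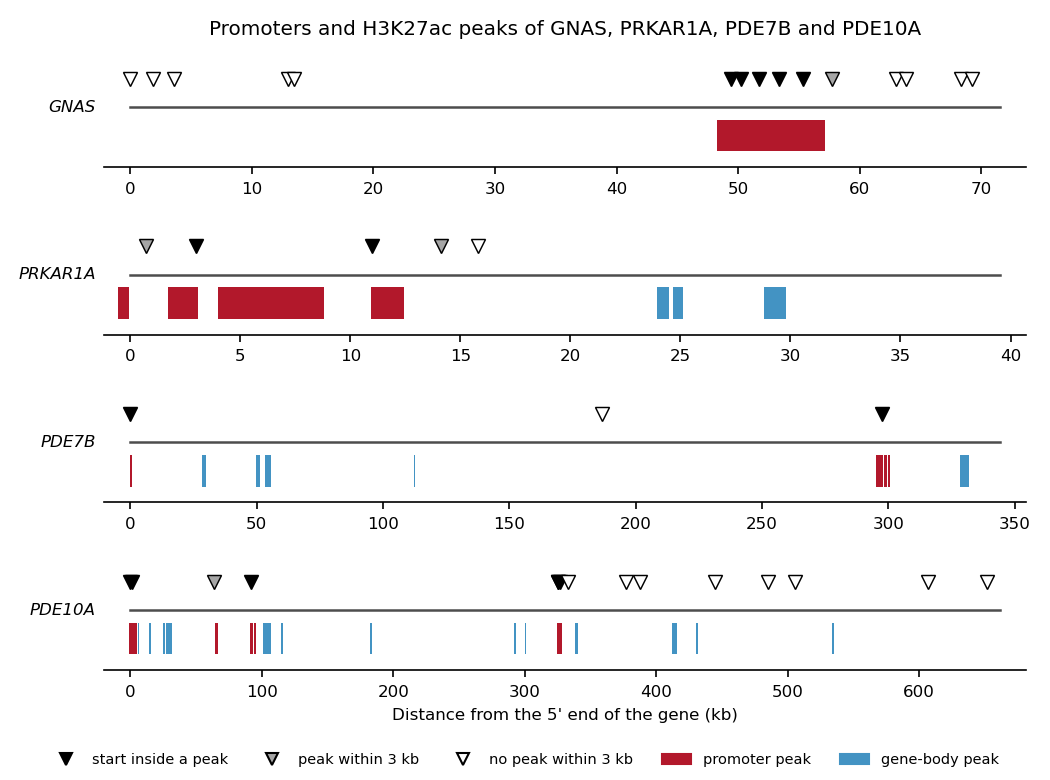
Promoters (triangles) and H3K27ac peaks (boxes) along GNAS, PRKAR1A, PDE7B and PDE10A, by distance from the 5' end of each gene (kb, each gene on its own scale), drawn with the same symbols as for the PDE4 genes. The GNAS peak of 8.86 kb begins downstream of the 5 upstream promoters, and the first PRKAR1A promoter lies between peaks.

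Gene-body peaks were counted because long genes can hold enhancers. Of the 36 genes, 14 (38.9%) had at least 1 peak outside their promoter windows, against 17.9% of all genes. Of the 103 gene-body peaks, 98 had their midpoint in an intron. Summed over the members there were 1.21 gene-body peaks per 100 kb of gene, against 0.682 over all protein-coding genes. That difference rested on 3 genes. PDE4D held 35 of the peaks and ranked 4 among all protein-coding genes, PDE10A held 19 (rank 18) and PDE4B held 15 (rank 39). Without these 3, the members had 0.596 per 100 kb, against 0.678. The next were PDE7B with 6, PDE3A with 5 and PDE8B with 4. ADCY9, PRKAR1A, PDE1A, PDE1C and PDE11A had 3 each, ADCY2 had 2, and PRKACA and PRKAR2A had 1 each.

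The count differed by length class. Among genes of 300 kb or more, 9 of 10 members had a gene-body peak, against 53.1% of 826 genes of that length, with a median of 4 peaks against 1. RAPGEF4 was the one without. From 150 to 300 kb, 2 of 8 members (25%) had one, against 46%, and from 50 to 150 kb 1 of 10 (10%), against 29.6%. Below 50 kb it was 2 of 8 (25%), PRKACA and PRKAR1A, against 8.74%. The PRKACA peak lay at its 3' end, with its midpoint outside the gene and at a start of SAMD1. When peaks near the starts of any gene were left out, PRKAR1A was the 1 short member with a gene-body peak (4.86% of all short genes), and 13 members remained in all, against 13.5% of all genes. The members were above genes of the same length among those of 300 kb or more and below them from 50 to 300 kb. By role, PDE4 genes held 2.24 gene-body peaks per 100 kb and those of PDE7, PDE8, PDE10 and PDE11 held 1.60. In PDE4 all of these peaks lay in PDE4D and PDE4B, and PDE10A held 19 of the 32 in the other group. PKA subunits held 0.798, PDE1 to PDE3 0.633 and cyclases 0.335.

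**Figure D4:**
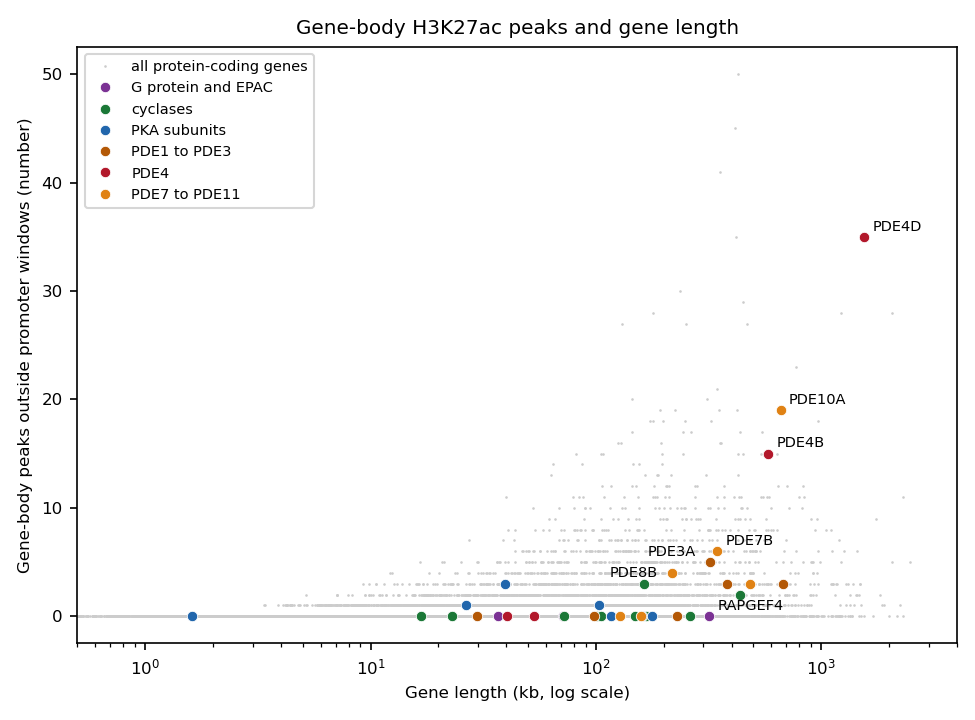
Number of H3K27ac peaks inside each gene and outside its promoter windows (vertical axis) against gene length (kb, log scale), with all 20015 protein-coding genes in grey and the cAMP signalling genes coloured by role. PDE4D (35), PDE10A (19) and PDE4B (15) stand above most genes of their length, while RAPGEF4, at 318 kb, has none.

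These peaks were clustered. When neighbouring peaks were stitched at the distance the study used to find super-enhancers, and regions were ranked by summed peak width, 6 of the 36 genes overlapped a region past the point where the ranked curve reaches a slope of 1, against 7.58% of all genes. A longer gene can overlap more regions, and this count was not set beside genes of similar length. This ranking of width is not the study's ranking by reads. There were 879 such regions of 17049. PDE4D held 3 of them. The first (chr5:60175631-60210730) had 10 peaks with a summed width of 20.11 kb and rank 147, and lay 312.8 to 345.4 kb from the 5' end of the gene by the midpoints of its peaks. The others had 5 peaks (chr5:60261041-60287760, rank 482) and 4 peaks (chr5:59123911-59143280, rank 739). Only the second of the 3 came within 3 kb of a PDE4D promoter, promoter 5. In PDE4B, 12 peaks from 66261861 to 66301600 made a region of 13.32 kb summed width and rank 344, which lay between promoters 4 and 5. PDE10A had regions of rank 406 (chr6:165957001-165989410, 7 peaks), which included promoters 1 and 2, and 533 (chr6:165872261-165897200, 6 peaks).

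The other members past that point were PRKAR1A, PRKACA and GNAS. The PRKAR1A region joined all 8 of its peaks (chr17:68509021-68541580, rank 431), and one of these peaks lay within 3 kb of a start of FAM20A. The region that touched PRKACA (chr19:14071211-14092180, rank 729) overlapped only its 3' end and lay at a start of SAMD1. For GNAS the region was the single 8.86 kb peak (rank 748). No cyclase, no gene of PDE1 to PDE3 and neither exchange factor was past the point.

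ATF1 and CREB bind the CRE, TGACGTCA, whose half-site is TGACG, and the study examined this motif at EA1 binding sites. No EA1 binding data were used here, and a match is a stretch of letters, not a bound site. In windows from 250 bases before to 50 after a start, with 1 start for each promoter and both strands searched, TGACGTCA was found in 4 of 36 genes, against 3.28% of all genes. These were PDE4A, PRKAR1A, PDE7A and PDE7B. By promoter it was 4 of 255 windows (1.57%), against 0.96% of the promoters of all genes. Among promoters with a peak it was 3 of 76 (3.95%), against 2.05%. Each TGACGTCA also counts as TGACG on both strands. TGACG alone was in 37 of 255 windows (14.5%), against 17.9%. Other motifs were the AP1 site TGAGTCA (9 windows, 3.53%, against 4.59%) and the E-box forms that MITF is known to bind, TCATGTG (4, 1.57%, against 3.35%) and TCACGTG (3, 1.18%, against 2.53%). Counted by promoter, the full CRE was the one of these motifs with a higher share in the members than in all genes, and it rests on 4 genes. Counted by gene, where the members have more promoters to search, TGACG was in 21 of 36 genes against 45.7% of all genes, TGAGTCA in 9 against 14.1%, TCATGTG in 4 against 10.5% and TCACGTG in 3 against 8.32%.

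The 4 CREs in these windows lay outside peaks, and 3 of them lay beside one. Positions are those of the first base on the gene strand, and -1 is the base before the start. In PDE4A the CRE was at position -3 from the start of promoter 1 and 29 bases beyond the edge of the 0.44 kb peak. In PDE7B it was at position -155 from the canonical start and 57 bases short of the 0.94 kb peak. In PRKAR1A it was at position -49 from the canonical start, in the gap described above, 660 and 1042 bases from the peaks on either side. In PDE7A the window with a CRE was that of promoter 5, which has no coding transcript, 75.0 kb from a peak. PDE7A also had a CRE inside its 2.45 kb promoter peak, at position -53 from the canonical start, which fell outside the window placed at another start of promoter 1. A further CRE in the same peak was at position -256 from that other start. When the windows of every annotated start were searched, an alternative added after seeing the data, the same 4 genes held a CRE, against 3.83% of all genes, and the PDE7A site at the canonical start was the one inside a peak. The 3 CREs of PDE4A, PDE7B and PRKAR1A are shown on the gene strand from hg38 with TGACGTCA in capitals. In the PDE4A sequence the half-site recurs on either strand, at positions -88, -82, -63, -33 and -14 from the start besides those within the CRE.
PDE4A CRE (chr19:10416670-10416777, plus strand): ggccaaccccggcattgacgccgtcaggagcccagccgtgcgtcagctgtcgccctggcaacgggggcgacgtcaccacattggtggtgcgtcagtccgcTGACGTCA
PDE7B CRE (chr6:135851496-135851603, plus strand): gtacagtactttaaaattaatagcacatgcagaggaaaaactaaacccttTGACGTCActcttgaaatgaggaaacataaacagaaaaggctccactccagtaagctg
PRKAR1A CRE (chr17:68512370-68512399, plus strand): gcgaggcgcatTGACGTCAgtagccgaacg

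Within the peaks themselves, TGACGTCA occurred 3 times in the 59 promoter peaks (0.0289 per kb) and 4 times in the 103 gene-body peaks (0.029 per kb), against 0.0191 per kb over all peaks. The half-site TGACG stood at 0.646 per kb in the promoter peaks and 0.341 in the gene-body peaks, against 0.665 over all peaks, and TGAGTCA at 0.0675 and 0.167, against 0.15. The values over all peaks pool promoter peaks with others, so neither class of member peaks is set beside its own class. The promoter occurrences of TGACGTCA were 1 in the 6.55 kb PDE10A peak and the 2 in the PDE7A peak given above. Those in gene bodies lay in introns of PDE1C, PDE3A, PDE4D and PDE7B, 1 in each. All 7 belonged to phosphodiesterases, which held 77.2% of the members' 162 peaks. The one in PDE4D lay in its widest peak, of 7.19 kb, in the region of rank 739. The sequences around these sites, other than the PDE7A ones, are given on the gene strand from hg38 with TGACGTCA in capitals.
PDE10A peak CRE (chr6:165984935-165985042, minus strand): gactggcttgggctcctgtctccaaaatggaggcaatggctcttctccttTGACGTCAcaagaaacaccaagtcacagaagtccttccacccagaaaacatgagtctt
PDE4D peak CRE (chr5:59127677-59127784, minus strand): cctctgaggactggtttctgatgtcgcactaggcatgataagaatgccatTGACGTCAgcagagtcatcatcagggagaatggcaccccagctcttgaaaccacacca
PDE7B peak CRE (chr6:135902221-135902328, plus strand): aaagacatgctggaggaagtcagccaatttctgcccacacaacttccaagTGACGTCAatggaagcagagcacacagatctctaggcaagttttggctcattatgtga
PDE1C peak CRE (chr7:32255113-32255220, minus strand): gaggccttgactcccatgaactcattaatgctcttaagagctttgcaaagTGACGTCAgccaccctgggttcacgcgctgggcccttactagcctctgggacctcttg
PDE3A peak CRE (chr12:20527533-20527640, plus strand): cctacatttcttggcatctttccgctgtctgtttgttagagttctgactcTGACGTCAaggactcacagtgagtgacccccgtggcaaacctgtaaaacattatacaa

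The rest of the pathway was described from lists that surround these genes. Other G alpha subunits that act on cyclases or olfactory signalling had a promoter peak in 5 of 5 genes, GNAI1, GNAI2, GNAI3, GNAZ and GNAL, with GNAL the widest at 5.69 kb. The inhibitor peptides of PKA, PKIA, PKIB and PKIG, had one in 3 of 3 genes. A-kinase anchoring proteins, which tether PKA, had one in 13 of 15, without AKAP4 and AKAP14. AKAP12 had the most, with 8 promoter peaks and 9 gene-body peaks. Receptors that couple to the stimulatory G protein had a promoter peak in only 10 of 28 genes (35.7%), the widest at GPR12 (2.58 kb) and ADORA2B (1.80 kb). The list of cGMP-specific phosphodiesterase genes, which includes the non-catalytic subunits PDE6G and PDE6H, had one in 3 of 7, PDE5A, PDE6A and PDE6G. Cyclic nucleotide channels, POPDC proteins and cAMP exporters had one in 7 of 15, which were HCN2, HCN3, POPDC1, POPDC2, POPDC3, ABCC4 and ABCC5. The receptors, the cGMP phosphodiesterase list (42.9%) and the channel, POPDC and exporter list (46.7%) thus lay below the share of all protein-coding genes (63.4%). The G alpha, kinase inhibitor and anchoring lists lay above it. The lists are small, and none of these differences was tested.

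**Figure D5:**
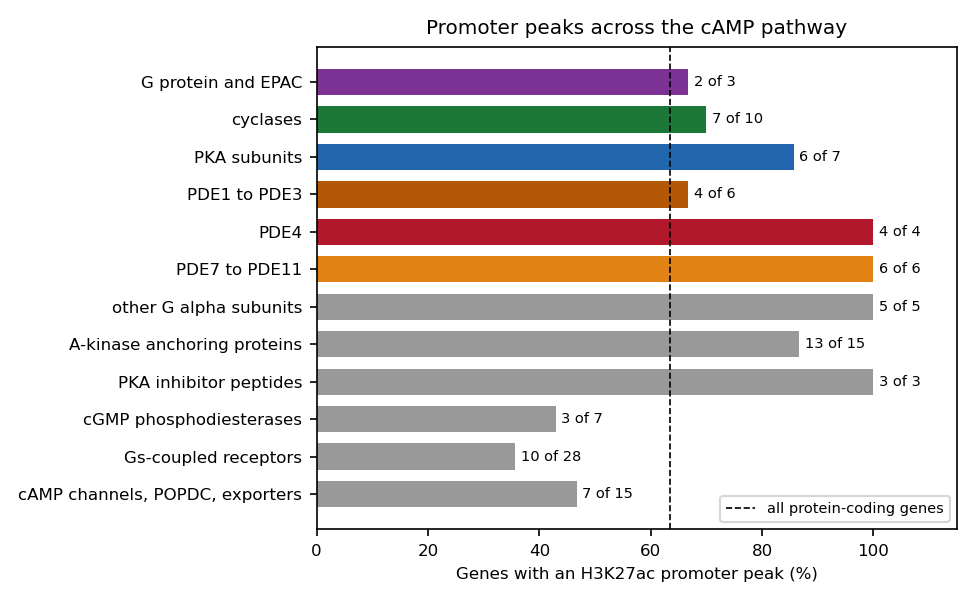
Share of genes with an H3K27ac promoter peak (percent, horizontal axis) for the 6 roles of the cAMP signalling genes (coloured) and 6 lists from the rest of the pathway (grey), with the counts beside each bar. The dashed line is the share over all protein-coding genes (63.4%). PDE4 (4 of 4) and PDE7 to PDE11 (6 of 6, PDE9A not among them) lie above it and receptors (10 of 28) below it.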

How the data were processed

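H3K27ac was profiled by ChIP-seq in SU-CCS-1 cells (3 ChIP and 3 input samples, grouped by sample title). Per the labels and the study's methods, the authors used BWA-MEM (version 0.7.10-r789) for alignment to hg38, removed duplicates, called broad peaks with MACS2 (version 2.2.6) against input and removed denylisted regions. The deposited file is 1 merged list of peak coordinates, with no score, count or value per sample. How replicates were joined is not given in the sources used here. Depth behind a peak is unknown, and peak width depends on signal height and on the joining of neighbouring stretches.

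Peaks were matched to GENCODE 44 with Python (version 3.11.15), and sequences were read from hg38 with samtools (version 1.23.1) and pysam (version 0.24.0). Coordinates are counted from 1, and genes shared by X and Y were counted once. Overlaps needed 1 base. Residues are those of the longest transcript with a complete coding sequence at a promoter. Motif windows were placed at the start used by most transcripts. A promoter was a set of starts within 500 bases. Figures used matplotlib (version 3.10.9). Scripts were tested on simulated data.

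The members, motifs and lists were chosen with earlier results of these data known. Any member may be named. Of the other lists, genes are named where 8 or fewer had, or lacked, a promoter peak, and otherwise the 3 widest, of which 1 is not reported here. AKAP12 was singled out after its values were seen. POPDC1 is annotated as BVES and AKAP2 as PALM2AKAP2. With 1 list and no replicate values, no test was made, and counts are set beside all 20015 protein-coding genes.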

Additional observations from a re-analysis of the deposited data

How the results depend on the processing

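Over 6 counts, 24 alternatives were computed, of which 4 were chosen after seeing the data, and 18 stayed within 1.5 times the count. That limit concerns the members' value alone, not its difference from all genes. With the canonical start, 21 members had a promoter peak (59.9% of all genes), which is within the limit. The members then no longer stood above all genes. The members with a promoter peak fell to 15 with only the widest 25% of peaks (26.9% of all genes), fewer peaks entering by construction. The PDE4 promoters with a peak fell to 8 when a start had to lie inside the peak (22.4% of all promoters) and to 7 with the widest 50% of peaks (25.1%). The gene-body peaks per 100 kb fell to 0.506 with the widest 50% of peaks (0.26 over all genes) and, added after seeing the data, to 0.596 without PDE4D, PDE10A and PDE4B (0.678), where the members no longer stood above all genes. Without PDE4D alone the value was 0.978 (0.68). Also added, 9 members with a gene-body peak remained when only genes of 300 kb or more counted (53.1% of such genes).

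Stitched by span, 5 members were past the slope-1 point (9.25% of all genes), and with 5 kb stitching 6 were (5.24%). With the canonical start alone, 3 members held TGACGTCA in the start window (2.69% of all genes). PDE4A was no longer among them, and the PDE7A site was then the one inside its promoter peak in place of that at promoter 5. With every annotated start, added after seeing the data, 4 members held it (3.83%).

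No paired analysis was possible because peaks of all replicates stand together in 1 list, and no replicate was left out for the same reason. Read counts are not given, and the reliability of narrow peaks, such as those of PDE4A and PDE4C, was not tested.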
